A study of Mus musculus with 48 samples.

Results

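Ribosomal protein genes of the cytosolic ribosome were examined in stromal cells of the mouse lymph node, in mice carrying Eμ-Myc lymphoma and in naive mice. The genes were chosen by symbol: all names of the form Rpl or Rps followed by a number, with the letter and paralog endings in use, plus Rplp0, Rplp1, Rplp2 and Rpsa, while Rps6k kinases and pseudogene symbols were left out. This rule found 62 genes with 92 probes among 19057 genes of the probe annotation. Each gene was read on its brightest probe, and 58 of the 62 had a probe above the background level and were tested among 13178 genes. Of the 58, 55 were above it in all 8 group means. Rpl14 and Rpl6 were above it in 1 tumor group only and in no naive group, so they entered the test through the group where they were high, and Rpl3l was above it in 3 groups. Rpl17, Rpl39l, Rps20 and Rps23 stayed at or under this level in every group mean and were not tested.

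Cells came from pooled skin-draining lymph nodes (cervical, axillary, brachial and inguinal), digested, depleted of CD45+ leukocytes and sorted by CD31 and gp38 (podoplanin) into fibroblastic reticular cells (FRCs, CD31-gp38+), blood endothelial cells (BECs, CD31+gp38-), lymphatic endothelial cells (LECs, CD31+gp38+) and a double-negative fraction (DN). Tumor mice had received 200000 to 400000 Eμ-Myc lymphoma B cells intravenously, that is B cells in which an immunoglobulin enhancer drives the oncogene Myc, and tumor load averaged 4% to 10% of all lymphocytes of the node. Naive mice were wild-type controls. By the study's methods the animals were C57BL/6N or on that background, 8 to 12 weeks old and of both sexes, with groups matched for sex. That study credits these arrays to an earlier publication (Gloger et al.). Whether its animal details hold for the array mice is not stated. Each of the 8 groups held 3 biological replicates of RNA combined from 4 to 6 sorts, and each replicate was hybridized to 2 strips of an Illumina bead array, giving 48 strips. Each cell type had a slide of its own, on which tumor and naive replicates held different fixed places, so an effect of slide position cannot be told apart from one of the tumor. Whether replicates came from separate animals is not stated, so p-values measure the spread between these pools.

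A ribosome is built from a small and a large subunit, in which ribosomal RNA does the catalysis and a large set of proteins shape and regulate it. Cells need these proteins in equal numbers, and their mRNAs are among the most abundant of any cell. Most of them begin with a run of pyrimidines, the 5′ terminal oligopyrimidine (5′TOP) motif, through which the kinase complex mTORC1 and the RNA-binding protein LARP1 adjust their translation together, while Myc and other growth signals raise their transcription. A few genes are paralogs with a restricted pattern, such as Rpl3l in muscle.

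Signals are given as normalized log2 values, so a difference of 1 is a doubling of signal. The background level was 5.60, and levels of different genes are not compared, because each probe has its own brightness. The probes of the ribosomal protein genes were near the upper end of the scale, with a median signal of 14.53, against 8.49 for all genes tested. Their replicates were tight, with a median SD within groups of 0.18, against 0.29 for all genes tested, and the strips of a replicate differed by a median of 0.11, against 0.17. These genes have many near-identical pseudogene copies, and cross-reaction of the probes was not tested.

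Marker sums set the sorted fractions apart only in part. In tumor replicates 11 FRC and fibroblast markers summed to 174000 to 266000 in FRCs (linear signal). They summed to 14800 to 59700 in tumor BECs and 52800 to 71200 in tumor LECs. The list includes Pdpn, the gene of gp38, by which LECs are sorted as well. It also includes Ccl21a, which the study reports in high endothelial cells. How much of these sums is RNA of the sorted cells themselves was not tested. The 8 lymphatic endothelial markers summed to 91400 to 107000 in tumor LECs, but also to 50900 to 94900 in tumor FRCs. In tumor BECs they summed to 14100 to 46100. The part of RNA from other fractions in the results was not tested. The summed linear signal of 10 pan-endothelial markers lay between 185000 and 220000 in BECs and between 103000 and 150000 in LECs, against 4780 to 11200 in FRCs. In DN cells it was 25300 to 29800 in tumor, against 10400 to 17900 in naive, with 5 of the 10 markers called higher there (Tie1, Pecam1, Cdh5, Eng and Egfl7), as were 3 of 9 blood endothelial and 0 of 8 lymphatic endothelial markers, and the part of endothelial RNA in the DN results was not tested. Leukocyte RNA was not even across the tumor replicates. The sum over 12 pan-leukocyte markers was 24700, 51900 and 7730 in the BEC tumor replicates, against 7710 to 9090 in BEC naive replicates, and 78200, 55400 and 11300 in the DN tumor replicates, against 6800 to 8700 in DN naive replicates. In FRCs it was 5820, 5540 and 13200 in tumor, against 2420 to 3850 in naive, and in LECs 8230 to 10600 in tumor, against 6580 to 8110 in naive. Of 10 measured B cell markers, 8 were above background in the BEC tumor and DN tumor means, and their sum reached 23800 in DN tumor replicate 1, against 1330 to 2390 in DN naive. The counts and genes that the results turn on are given also without BEC and DN tumor replicates 1 and 2, and the part of leukocyte RNA in the results was not tested further. That fit leaves BEC and DN tumor with 1 replicate each, whose spread is taken from the other groups. It leaves out no FRC or LEC replicate. Changes in FRCs and LECs are therefore the same in it, and it cannot test leukocyte RNA there. In RNA of a sorted fraction, a change in the number of cells of one kind and a change in RNA per cell cannot be told apart.

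The first comparison asked whether ribosomal protein genes differed between tumor and naive mice within each cell type. In FRCs 1 of the 58 genes passed the test as higher in tumor and none as lower (limma, Benjamini-Hochberg adjusted p under 0.05), where 10.5% of all genes tested passed (6.37% higher, 4.1% lower). In BECs it was again 1 higher and 0 lower, where 5.07% of all genes passed (3.58% higher, 1.49% lower). In LECs 0 of 58 passed in limma, where 0.911% of all genes did (0.774% higher, 0.137% lower), and in DN cells 0 of 58, where 7.34% did (4.76% higher, 2.58% lower). An unadjusted p under 0.05 was reached by 20 of the 58 in FRCs (25.5% of all genes), 12 in BECs (20% of all genes), 3 in LECs (8.8%) and 8 in DN cells (23.3%). The methods' t-test is one listed in the study's methods, which name no test for these arrays. With the same adjustment it called 3 in FRCs, where 4.94% of all genes passed, and none in the other cell types, where no gene passed. At the adjusted threshold in limma the share of ribosomal protein genes was 1.72% in FRCs and in BECs and 0 in LECs and DN cells. These shares rest on 1 gene or none. In LECs, where 0.911% of all genes passed, 0 of 58 does not set ribosomal protein genes apart.

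The gene that passed in both FRCs and BECs was Rpl13a, a large subunit protein known in human myeloid cells for silencing inflammatory mRNAs when released from the ribosome. In FRCs its signal was 12.46, 12.37 and 11.83 in the tumor replicates, against 11.38, 11.58 and 11.23 in the naive replicates. In BECs it was 12.47, 12.48 and 11.96 in tumor, against 11.78, 11.35 and 11.58 in naive. In these cell types every tumor replicate lay above every naive one. The rise was 0.82 ± 0.20 (log2, SE, n = 3 each; 1.77-fold; limma adjusted p = 0.012) in FRCs and 0.73 ± 0.20 (1.66-fold; limma adjusted p = 0.036) in BECs. LEC tumor replicates read 11.63, 11.94 and 11.76, against 11.24, 11.14 and 11.43 in naive, and DN tumor replicates 12.67, 12.47 and 12.05, against 11.94, 11.70 and 11.68 in naive. These groups did not overlap either, although the differences of 0.50 ± 0.20 in LECs (limma adjusted p = 0.39) and 0.62 ± 0.20 in DN cells (limma adjusted p = 0.061) did not pass. The change of Rpl13a could not be shown to differ among the 4 cell types (limma interaction F-test, adjusted p = 0.9).

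The calls for Rpl13a rested on few replicates. The FRC call was lost without FRC tumor replicate 1 (adjusted p = 0.071), FRC tumor replicate 2 (0.074) or FRC naive replicate 1 (0.05), and the BEC call without BEC tumor replicate 1 (0.16) or 2 (0.20) or BEC naive replicate 2 (0.12) or 3 (0.11). The DN difference passed without DN tumor replicate 3, at 0.80 (adjusted p = 0.013). Without BEC and DN tumor replicates 1 and 2, the differences from the one tumor replicate left were 0.40 in BECs and 0.28 in DN cells. The FRC change stayed at 0.82, because that fit leaves out no FRC replicate.

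The next genes in each cell type came close to the threshold without passing it. In FRCs these were Rpl19, which bridges the subunits (0.40, limma adjusted p = 0.053), Rpl27 (0.55, 0.06) and Rps19, a gene mutated in human Diamond-Blackfan anemia (0.43, 0.063). In BECs they were Rplp2 (0.37, limma adjusted p = 0.066), Rplp0 (0.75, 0.093) and Rpl10a, a protein of the L1 stalk by which used tRNA leaves (0.43, 0.097). In DN cells they were Rpl39, a protein of the exit tunnel (0.36, limma adjusted p = 0.065), Rpl4 (0.54, 0.067) and Rps13 (0.47, 0.085). In LECs the next were further off, with Rpl12 (0.34, limma adjusted p = 0.45), Rpl35 (0.41, 0.47) and Rpl22l1 (0.59, 0.62). With BEC and DN tumor replicates 1 and 2 left out, 6 genes passed in FRCs, all higher (Rpl13a, Rpl14, Rpl19, Rpl22l1, Rpl30 and Rpl7l1), where 13% of all genes passed. None passed in BECs (0.266% of all genes) or LECs (1.52%), and 2 passed as lower in DN cells (Rpl23 and Rps10, 1.36% of all genes), each from 1 tumor replicate. A dimmer Rpl23 probe gave 0.10 in DN cells in the same fit. Of the 6 genes in FRCs, Rpl14 was above background in FRC tumor alone. It entered the test through the group where it was high, so its call is not independent of that filter. The FRC changes of all 6 genes are those of the main fit, and only the estimate of the spread differs.

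The direction was shared by most ribosomal protein genes, even where single genes did not pass. In FRCs 50 of 58 had a log2 change above 0, where 47.5% of all genes did, in BECs 51 of 58, where 46.2% did, in LECs 42 of 58, where 49.7% did, and in DN cells 45 of 58, where 42.7% did. The median change over the 58 genes was 0.26 in FRCs, 0.20 in BECs, 0.09 in LECs and 0.14 in DN cells, while the median of all genes tested was -0.03, -0.04, 0.00 and -0.07 in the same order of cell types. In FRCs all 3 tumor replicates lay above all naive replicates for 35 of the 58 genes, where 19.4% of all genes did. The corresponding counts were 16 genes in BECs (12.9% of all genes), 9 in LECs (11.3%) and 11 in DN cells (7.98%). One gene each lay wholly below its naive replicates in FRCs (Rps24, a small subunit protein), BECs (Rpl22) and LECs (Rpsa), where 19.9%, 13.1% and 9.26% of all genes did, and none in DN cells (7.98%).

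**Figure D1:**
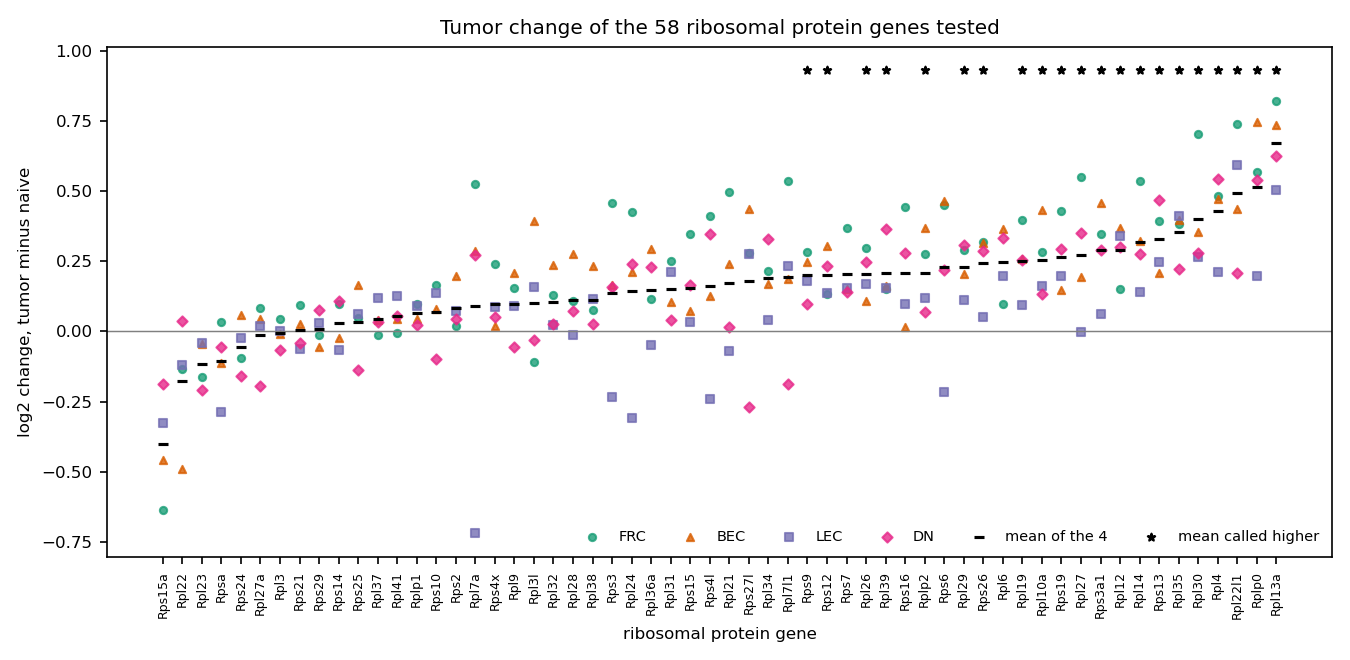
Log2 change between tumor and naive mice of the 58 tested ribosomal protein genes, ordered by the mean over the 4 cell types (black bars); colored symbols give each cell type and stars mark the 21 genes whose mean change was called higher. Most symbols lie above 0, Rpl13a stands at the upper end with a mean of 0.67, and Rps15a stands at the lower end with a mean of -0.40.

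The replicates of a tumor group were not alike in this shift. Measured against the naive mean of the same cell type, the median over the 58 genes was 0.26, 0.34 and 0.15 in FRC tumor replicates 1 to 3 and between -0.04 and 0.03 in the naive ones. In BECs it was 0.21, 0.29 and 0.09 in tumor and between -0.06 and 0.11 in naive. In LECs it was 0.06, 0.08 and 0.14 in tumor, against -0.07 to 0.06 in naive. In DN cells it was 0.29, 0.18 and 0.01 in tumor, against -0.06 to 0.07 in naive. The shift was thus outside the naive range in all FRC tumor replicates, in 2 of 3 BEC and DN tumor replicates, and in LEC tumor replicates only by a narrow margin. The BEC and DN tumor replicates with the larger shift, 1 and 2 in each, were also those with the high leukocyte marker sums, whereas in FRCs the replicate with the highest sum, 3, had the smallest shift. Without BEC and DN tumor replicates 1 and 2 the median was 0.09 in BECs and 0.01 in DN cells, each from the one tumor replicate left.

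**Figure D2:**
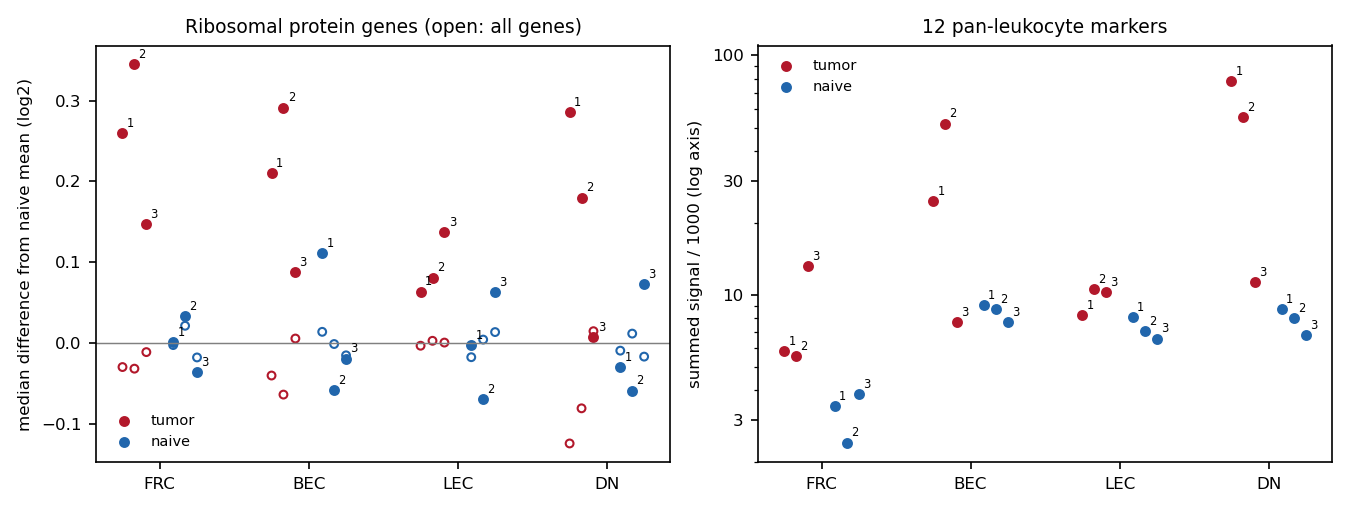
Left, the median difference from the naive mean (log2) over the 58 ribosomal protein genes in each replicate (filled) and over all genes tested (open), tumor in red and naive in blue, with replicate numbers; right, the summed signal of 12 pan-leukocyte markers divided by 1000 on a log axis. DN tumor replicates 1 and 2, at 0.29 and 0.18 on the left, carried sums of 78200 and 55400 on the right, and DN tumor replicate 3, at 0.01, carried 11300.

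A contrast of the mean change over the 4 cell types, added after the values had been seen, used all 24 replicates. Here 21 of the 58 genes rose and none fell, where 12.6% of all genes tested were called higher and 10.9% lower. By subunit, 15 of 35 tested large subunit genes and 6 of 23 small subunit genes rose. The mean change was above 0 for 51 of the 58 genes, where 43.2% of all genes had one above 0. The number of genes called and the number above 0 both fell without the leukocyte-rich replicates, a fit that also leaves BEC and DN tumor with 1 replicate each. In it 43 of the 58 genes had a mean change above 0. The share of all genes above 0 in that fit was not counted. Whether leukocyte RNA or the smaller number of replicates lay behind the fall was not tested. A called gene that keeps its sign in that fit adds no separate support. The 21 genes were picked from these same data, and their FRC and LEC changes are unchanged in it. With BEC and DN tumor replicates 1 and 2 left out, also after the values had been seen, all 21 genes kept a change above 0, but only Rpl13a of them passed (0.50, limma adjusted p = 0.011), 1 gene was called lower (Rpl23, -0.32, limma adjusted p = 0.019), and 4.99% of all genes were called higher and 3.07% lower.

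After Rpl13a, with a mean change of 0.67 ± 0.10 (SE; limma adjusted p = 8.9e-05), the smallest p-values belonged to Rpl4, Rpl12, Rplp0, Rps13 and Rpl35. Rpl4, which lines the tunnel through which the new protein leaves the ribosome, read 12.19, 12.32 and 11.87 in FRC tumor, against 11.79, 11.77 and 11.37 in FRC naive replicates. In BECs it read 12.20, 12.57 and 12.05 in tumor, against 11.98, 11.52 and 11.90 in naive. In DN cells it read 12.74, 12.55 and 12.36 in tumor, against 11.97, 12.10 and 11.96 in naive. The groups were apart in these 3 cell types and overlapped in LECs, where tumor replicates read 11.55, 11.91 and 11.76, against 11.38, 11.57 and 11.64 in naive. The mean rise of Rpl4 was 0.43 ± 0.09 (limma adjusted p = 0.0019), with 12 of 12 tumor replicates above the naive mean of their cell type.

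The stalk of the large subunit, formed by Rplp0, Rplp1 and Rplp2, recruits and activates the elongation factors, and Rpl12 sits at its base. Rplp0 read 11.28, 11.48 and 10.64 in FRC tumor, against 10.50, 10.54 and 10.65 in FRC naive replicates. In BECs it read 10.70, 10.88 and 10.18 in tumor, against 10.23, 9.48 and 9.81 in naive, and in DN cells 11.66, 10.96 and 10.87 in tumor, against 10.70, 10.87 and 10.30 in naive. One tumor replicate overlapped the naive range in each of these cell types. The mean rise of Rplp0 was 0.51 ± 0.13 (limma adjusted p = 0.0065), that of Rplp2 was 0.21 ± 0.06 (limma adjusted p = 0.012) and that of Rpl12 was 0.29 ± 0.07 (limma adjusted p = 0.0062). Rplp1, at a naive signal of 15.90, did not pass (0.06 ± 0.05, limma adjusted p = 0.4). Nor did the other probes with the highest signals, Rps2 (0.08 ± 0.06, limma adjusted p = 0.29), Rpl41 (0.06 ± 0.05, 0.43) and Rps29 (0.01 ± 0.05, 0.92). In LECs the Rpl12 groups stood apart, with 14.39, 14.47 and 14.42 in tumor, against 14.02, 14.08 and 14.15 in naive replicates.

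Rps13, a small subunit protein near the contact with the large subunit, rose by 0.33 ± 0.08 on average (limma adjusted p = 0.0069). FRC tumor replicates read 14.30, 14.43 and 14.22, against 13.91, 13.97 and 13.90 in naive, and DN tumor replicates 14.76, 14.59 and 14.03, against 13.96, 14.09 and 13.92 in naive. Rpl35, a protein at the tunnel exit, rose by 0.35 ± 0.09 (limma adjusted p = 0.0069). In LECs it read 15.03, 15.24 and 15.17 in tumor, against 14.91, 14.56 and 14.74 in naive replicates. The other 15 genes that rose were Rpl19, Rps26, Rps12, Rps19, Rplp2, Rpl39, Rpl14, Rpl10a, Rpl30, Rpl22l1, Rps9, Rpl27, Rpl26, Rpl29 and Rps3a1, with mean changes between 0.20 and 0.49. Among these Rpl14 is the gene that was above background in FRC tumor alone.

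**Figure D3:**
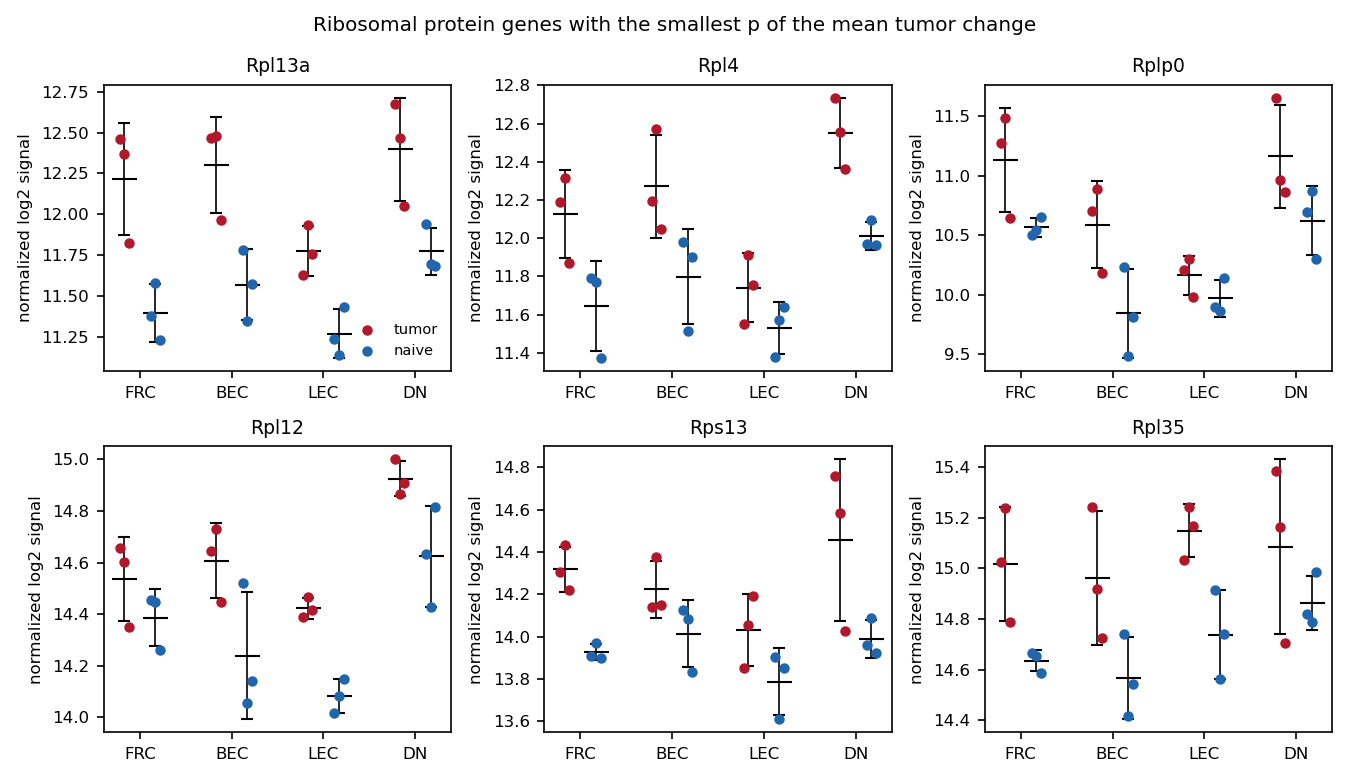
Normalized log2 signal of Rpl13a, Rpl4, Rplp0, Rpl12, Rps13 and Rpl35 in each replicate, tumor (red) left of naive (blue) in each cell type; bars give the mean and SD of 3 replicates. The 3 tumor replicates of Rpl13a lie above the 3 naive ones in all 4 cell types, and those of Rplp0 overlap the naive range in each.

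Promoter windows are shown for 4 of these genes and for the 2 genes with the smallest p among naive cell types below, to let the start of the transcribed part be compared. Each window runs from 60 bases before to 20 bases after a RefSeq gene start on GRCm38.p6, 5′ to 3′ on the gene's strand: Rpl13a at chr7:45128726-45128805 (minus strand), Rpl4 at chr9:64173327-64173406 (plus), Rpl12 at chr2:32961652-32961731 (plus), Rpl35 at chr2:39005112-39005191 (minus), Rps3 at chr7:99483690-99483769 (minus) and Rps27l at chr9:66946026-66946105 (plus). Capitals mark matches, on either strand, to the motifs searched, which are named after the sequences. The windows of Rplp0, without a match, and Rps13, with a match to GGGCGG, are not printed. Nor is a second RefSeq start of Rps27l, whose window held no match.
Rpl13a: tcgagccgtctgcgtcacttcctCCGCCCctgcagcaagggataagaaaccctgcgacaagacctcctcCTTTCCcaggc
Rpl4: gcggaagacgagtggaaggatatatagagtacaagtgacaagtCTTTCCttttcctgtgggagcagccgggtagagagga
Rpl12: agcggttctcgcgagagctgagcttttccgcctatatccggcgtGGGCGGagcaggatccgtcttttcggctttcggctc
Rpl35: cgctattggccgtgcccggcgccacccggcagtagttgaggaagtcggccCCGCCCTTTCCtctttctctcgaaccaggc
Rps3: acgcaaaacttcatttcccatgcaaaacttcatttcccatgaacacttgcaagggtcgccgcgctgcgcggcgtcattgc
Rps27l: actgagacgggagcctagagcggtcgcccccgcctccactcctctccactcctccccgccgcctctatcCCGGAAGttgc

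A promoter of 300 bases was given for 51 of the 62 genes. Of these, 45.1% held the ETS core CCGGAAG on either strand, where 9.93% of the promoters of all genes did, and 64.7% held the GC box GGGCGG, where 38.2% did. The pyrimidine run CTTTCC or its complement was in 52.9%, against 29.3%, and AAGATGG, as bound by YY1, in 15.7%, against 7.28%. The E box CACGTG, bound by Myc, was in 11.8%, against 8.09%, and the TATA box TATAAA in 11.8%, against 15.7%. Of the 19 called genes with a promoter, 36.8% held CCGGAAG and 21.1% held CACGTG. A match describes letters in a window and was not tied to binding or to the changes.

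The brightest probes gave small changes. Among the 17 genes with a mean signal over 15 the median change was 0.10 in FRCs, 0.06 in BECs, 0.09 in LECs and 0.05 in DN cells, whereas the 9 genes between 8 and 12 had medians of 0.50, 0.35, 0.20 and 0.29. All genes tested with a signal over 15 had medians of 0.03, 0.08, 0.03 and 0.01 in the same order. In BECs the brightest ribosomal protein genes thus did not exceed equally bright genes. All genes between 8 and 12 had medians of -0.03, -0.05, -0.01 and -0.07. Genes with more than 1 probe allowed the same mRNA to be read at different brightness. Every probe above background was therefore also tested on its own in the same model, a step added after the values had been seen. Among 16 genes with more than 1 such probe there were 22 dimmer probes. In FRCs 4 of the 80 probes of ribosomal protein genes were called higher (6.1% of all probes), in BECs 3 (2.9%), in LECs 0 (0.597%) and in DN cells 1 (3.9%). In FRCs 19 of the 22 dimmer probes had a larger change than the brightest probe of their gene, in BECs 14, in LECs 16, in DN cells 21, and in the mean over cell types 18. The same was not counted over all 5413 genes with more than 1 probe above background. The larger change of dimmer probes therefore cannot be called particular to ribosomal protein genes. In the mean over cell types 30 of the 80 probes, in 24 genes, were called higher and none lower, where 11.2% of all probes were called higher. Without BEC and DN tumor replicates 1 and 2 this count fell to 3 (Rpl13a, the dimmer probe of Rpl38 and the dimmer probe of Rpl29), with 1 lower (Rpl23), where 4.28% of all probes were called higher and 2.58% lower.

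Rpl38, a large subunit protein needed for the translation of Hox mRNAs in mouse embryos, showed this most. Its brightest probe had a mean change of 0.11 ± 0.06 (SE; limma adjusted p = 0.19), its dimmer probe one of 1.15 ± 0.14 (2.22-fold; limma adjusted p = 1.2e-05 over 21435 probes). The dimmer probe read 11.30, 11.41 and 10.98 in FRC tumor, against 10.02, 10.08 and 9.98 in FRC naive replicates. In BECs it read 10.84, 11.08 and 10.32 in tumor, against 9.67, 9.81 and 9.13 in naive. In LECs it read 9.92, 10.45 and 10.08 in tumor, against 9.48, 8.93 and 9.21 in naive. In DN cells it read 11.95, 11.62 and 10.86 in tumor, against 10.80, 9.87 and 10.04 in naive. All tumor replicates lay above all naive ones in each of the 4 cell types. The change passed in FRCs (1.20 ± 0.28, limma adjusted p = 0.011), BECs (1.21 ± 0.28, limma adjusted p = 0.019) and DN cells (1.24 ± 0.28, limma adjusted p = 0.013) and not in LECs (0.94 ± 0.28, limma adjusted p = 0.19). Without BEC and DN tumor replicates 1 and 2 the BEC and DN calls were lost, with changes of 0.78 in BECs and 0.62 in DN cells. The mean change was then 0.89. The FRC change stayed at 1.20, because no FRC replicate was left out.

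Dimmer probes of Rpl29, Rpl28, Rps24, Rps19 and Rpl31 also rose in the mean. For Rpl29, which has a dimmer and a brighter probe, the changes were 0.58 ± 0.11 (limma adjusted p = 0.00086) and 0.23 ± 0.08 (limma adjusted p = 0.049), for Rpl28 0.78 ± 0.20 (limma adjusted p = 0.0092) and 0.11 ± 0.08 (limma adjusted p = 0.36), and for one dimmer probe of Rps24 0.76 ± 0.19 (limma adjusted p = 0.0083), against -0.05 ± 0.07 (limma adjusted p = 0.59) on its brightest. With those 4 tumor replicates left out the Rpl29 probe still passed (0.48, limma adjusted p = 0.045), while those of Rpl28 (0.41, limma adjusted p = 0.26), Rps24 (0.49, 0.22), Rps19 (0.43, 0.15) and Rpl31 (0.33, 0.13, and 0.29, 0.21) did not. Not all dimmer probes had a larger change. That of Rps13 had a mean change of 0.05 ± 0.18 (limma adjusted p = 0.88), where its brightest had 0.33 ± 0.08, and that of Rpl7l1 had 0.01 ± 0.09 (limma adjusted p = 0.96).

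**Figure D4:**
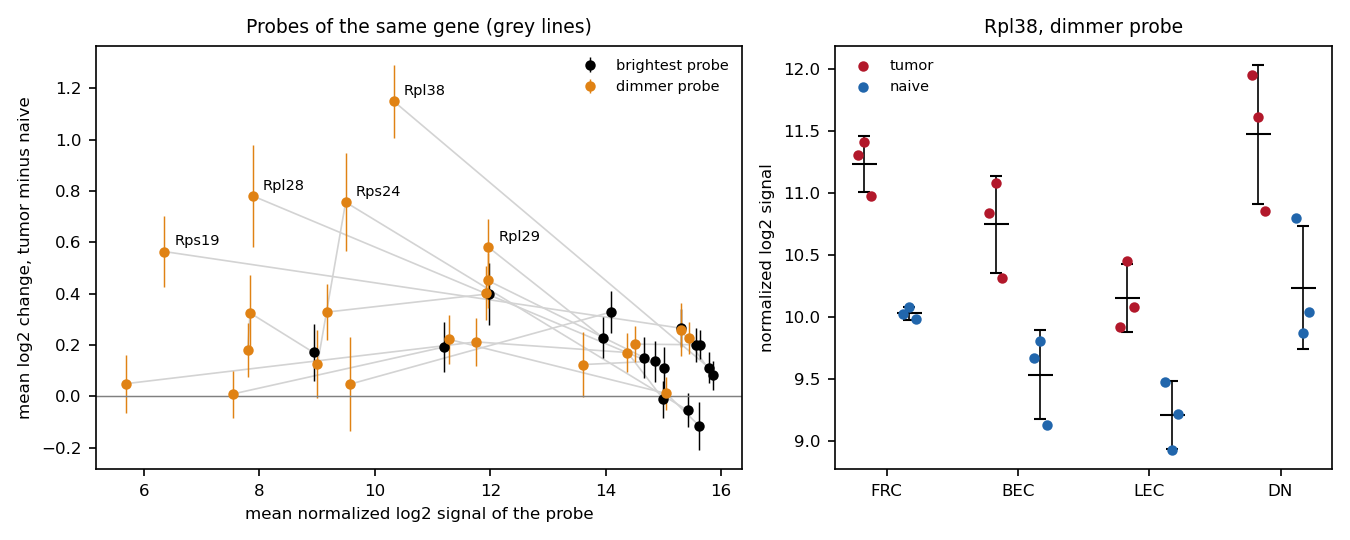
Left, mean log2 change between tumor and naive mice (± SE) against the mean normalized log2 signal for every above-background probe of the 16 genes with more than 1, brightest in black and dimmer in orange, grey lines joining probes of a gene; right, normalized log2 signal of the dimmer Rpl38 probe by replicate, tumor left of naive, with mean and SD. The dimmer Rpl38 probe has the highest change, 1.15, and its tumor and naive replicates do not overlap in any cell type.

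Paralogs were looked at beside the core genes. Of 11 listed paralogs 7 were tested, and 1 (14.3%) rose in the mean (Rpl22l1) and none fell, where 12.6% of all genes rose. Rpl22l1 is the paralog of Rpl22, and in mice the Rpl22 protein is known to hold the Rpl22l1 mRNA down. Rpl22l1 read 7.26, 7.62 and 6.94 in FRC tumor, against 6.46, 6.61 and 6.54 in FRC naive replicates, and 6.89, 6.86 and 7.42 in LEC tumor, against 6.59, 6.24 and 6.56 in LEC naive, with the groups apart in both. In DN cells 1 of 3 tumor replicates lay above the naive range (7.59, 6.11 and 6.17 in tumor, against 6.45, 6.70 and 6.10 in naive). Its mean rise was 0.49 ± 0.15 (limma adjusted p = 0.024) and did not pass without BEC and DN tumor replicates 1 and 2. Rpl22 itself read 11.91, 12.11 and 12.32 in BEC tumor, against 12.72, 12.41 and 12.69 in BEC naive replicates, without overlap, yet the difference of -0.49 ± 0.19 did not pass (limma adjusted p = 0.16), and its mean change was -0.18 ± 0.10 (limma adjusted p = 0.2).

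Few members lay below 0. Rps15a, a small subunit protein, had the lowest mean change, -0.40 ± 0.18 (limma adjusted p = 0.11), with 2 of 12 tumor replicates above the naive mean of their cell type. It averaged 8.24 ± 0.31 in FRC tumor, against 8.88 ± 0.52 in FRC naive replicates (SD, n = 3 each), with 2 of 3 tumor replicates below the naive range, and the difference did not pass (limma adjusted p = 0.29). Rpsa, also known as the laminin receptor, was only just above background and had a mean change of -0.11 ± 0.10 (limma adjusted p = 0.46). Rpl7a had the lowest value of any cell type, -0.72 ± 0.38 in LECs (limma adjusted p = 0.64), where FRCs gave 0.52 ± 0.38 (limma adjusted p = 0.43).

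Whether the change between tumor and naive mice differed among cell types was tested by an F-test on the interaction. None of the 58 ribosomal protein genes passed, where 1.31% of all genes did. Rps3 had the smallest unadjusted p (0.045, limma adjusted p = 0.35), with changes of 0.46 ± 0.16 in FRCs, 0.16 ± 0.16 in BECs, -0.23 ± 0.16 in LECs and 0.16 ± 0.16 in DN cells. Its dimmer probe had changes of 0.63, 0.09, -0.43 and 0.21 in the same cell types. A p above the threshold does not show that the changes were equal.

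The levels of ribosomal protein genes in naive mice were compared among cell types next. Of the 58 genes 11 differed (limma F-test), where 68.8% of all genes did. The range of the 4 naive means had a median of 0.28 for these genes, against 0.96 for all genes tested, and it exceeded 1 for 4 of 58 (6.9%), against 48.1% of all genes. Since each cell type had its own slide, slide and cell type cannot be told apart in these differences. Between pairs of naive cell types, LEC and DN cells differed in 13 genes (45.1% of all genes) and BEC and DN cells in 8 (52.1%). FRC and DN cells differed in 4 (38.6%), FRC and LEC in 3 (33.7%), BEC and LEC in 3 (22.2%), and FRC and BEC in 2 (41.1%).

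Rps3, which sits where mRNA enters the small subunit and also acts in DNA repair and NF-κB signaling, was highest in LECs. Naive replicates read 15.47, 15.50 and 15.65 in LECs, against 14.97, 14.45 and 14.71 in BECs, 14.52, 14.77 and 14.46 in DN cells, and 14.30, 14.45 and 14.14 in FRCs. LECs stood above every other replicate (LEC minus DN cells 0.96 ± 0.16, limma adjusted p = 6.8e-05), while BEC and DN replicates overlapped. FRCs were lower than BECs by a smaller step (FRC minus BEC -0.42 ± 0.16, limma adjusted p = 0.041). The dimmer Rps3 probe gave naive means of 14.63 in LECs, 13.61 in BECs, 13.19 in DN cells and 12.75 in FRCs, the same order. Tumor replicates kept LECs on top, at 15.32, 15.10 and 15.50.

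Rps27l, a paralog of Rps27 that p53 induces, was highest in DN cells. Naive DN replicates read 14.81, 14.31 and 14.95, against 13.84, 13.45 and 13.40 in FRCs, 13.88, 13.54 and 13.51 in LECs and 13.47, 13.37 and 12.81 in BECs. All DN replicates were above all others (BEC minus DN -1.47 ± 0.22, LEC minus DN -1.05 ± 0.22, limma adjusted p = 2e-05 and 0.00083). FRC and LEC replicates overlapped. In tumor mice DN replicates read 14.63, 14.56 and 14.07, a difference from naive of -0.27 ± 0.22 (limma adjusted p = 0.5).

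Rpl3l, which replaces Rpl3 in skeletal and heart muscle, was near background except in DN cells. Naive DN replicates read 8.94, 5.93 and 8.29 and tumor DN replicates 7.73, 6.76 and 8.58, while naive means were 5.27 in FRCs, 5.32 in BECs and 4.85 in LECs. The difference between naive cell types passed (limma F-test, adjusted p = 0.00021), with DN replicate 2 close to background. Among the naive groups only the DN mean was above background, so Rpl3l entered the test largely through the cell type where it was high. Its call, one of the 11 among naive cell types, is thus not independent of that filter. No naive replicate of the other cell types was above background, so the naive DN mean was at least 4.34-fold higher, set against the background level. Skeletal muscle genes, picked after these values had been seen, moved with it across DN replicates. Not all of them were confined to DN cells. The muscle gene Mylpf read 8.37, 8.66 and 7.84 in BEC naive replicates, where Rpl3l was under background. Acta1, skeletal muscle actin, read 10.55, 9.99 and 12.20 in DN tumor replicates, against 12.46, 7.14 and 12.31 in DN naive. Tnnc2, a troponin of fast muscle, read 8.54, 7.96 and 10.51 in DN tumor, against 10.98, 5.28 and 9.95 in DN naive. Naive replicate 2 was the lowest of the 6 DN replicates for Acta1, Ckm, Mylpf and Tnnc2, and tumor replicate 2 for Tnnt3 (5.06, against 5.29 in naive replicate 2), and the part of muscle RNA in the Rpl3l signal was not tested.

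**Figure D5:**
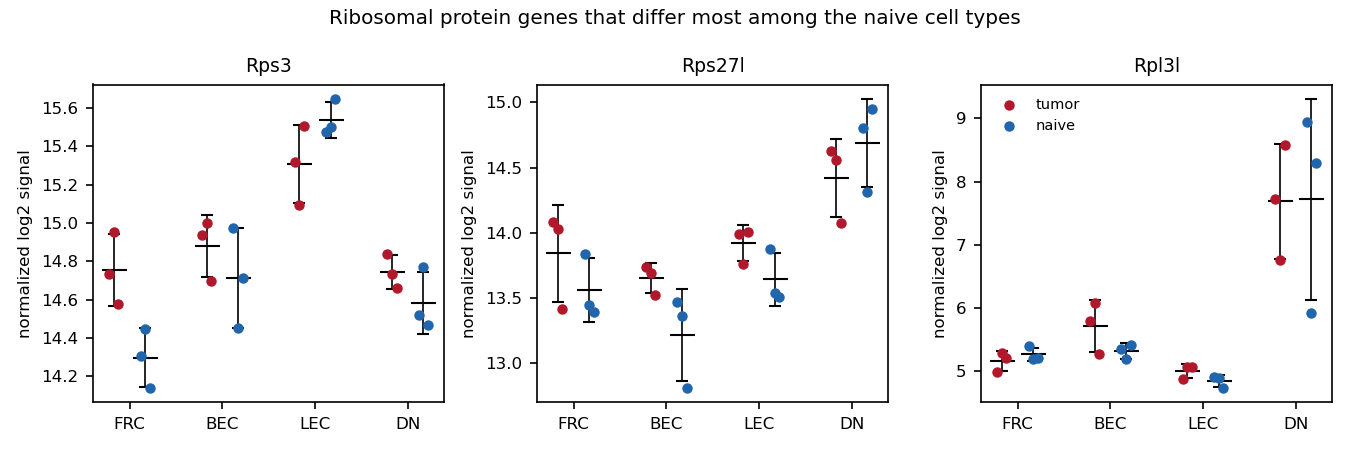
Normalized log2 signal of Rps3, Rps27l and Rpl3l in each replicate, tumor (red) left of naive (blue), with the mean and SD of 3 replicates. Naive LECs, at 15.47 to 15.65, lead in Rps3, and DN cells lead in Rps27l and, with a wide spread from 5.93 to 8.94 in naive mice, in Rpl3l.

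The other 8 genes that differed among naive cell types had smaller ranges. Rps26 (14.90 in DN cells, 14.27 in BECs), Rpl21 (9.29 in DN cells, 8.40 in LECs), Rpl12 (14.63 in DN cells, 14.08 in LECs) and Rplp0 (10.62 in DN cells, 9.84 in BECs) were highest in DN cells. Rpsa (6.45 in LECs, 5.74 in FRCs) and Rps4l (9.96 in LECs, 9.29 in DN cells) were highest in LECs, Rpl26 (14.14 in BECs, 13.74 in LECs) in BECs, and Rps15a (8.88 in FRCs, 7.79 in DN cells) in FRCs. At the other end, Rpl3, which folds around the peptidyl transferase center, had naive means within 0.06 of each other, Rplp1 within 0.08, and Rps24 and Rps21 within 0.10.

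Genes that work with the ribosomal proteins were counted for comparison, to be read against the 12.6% of all genes called higher and 10.9% called lower in the mean. Of 19 tested translation factors and other mRNAs of the 5′TOP class, 8 rose and 1 fell in the mean over cell types, with a median change of 0.19. Nap1l1, a histone chaperone with a 5′TOP mRNA, rose by 0.78 ± 0.10 (limma adjusted p = 1.6e-05), Hnrnpa1, an RNA-binding splicing factor, by 0.64 ± 0.12 (limma adjusted p = 0.00056) and Eef1g, an elongation factor subunit, by 0.28 ± 0.08 (limma adjusted p = 0.011), while Eif4a2, a paralog of the initiation helicase Eif4a1, fell by 0.32 ± 0.07 (limma adjusted p = 0.0043). Without BEC and DN tumor replicates 1 and 2, 2 rose (Nap1l1 and Hnrnpa1) and none fell. Of 71 tested mitochondrial ribosomal proteins, which build a separate ribosome, 38 rose and none fell in the mean, with a median of 0.27, against 0.17 for the cytosolic ones. In FRCs 15 of them rose, among them Mrps2 (1.27 ± 0.20, limma adjusted p = 0.00064), where 6.37% of all genes rose. In BECs 4 rose (5.63%, against 3.58% of all genes), in DN cells 2 (2.82%, against 4.76%) and in LECs 0. With the same 4 replicates left out, 14 of the 71 rose in the mean, where 4.99% of all genes did.

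Of 8 dedicated chaperones that escort new ribosomal proteins to the nucleolus, 3 rose in the mean and none fell. Grwd1, the chaperone of Rpl3, rose by 1.02 ± 0.17 (limma adjusted p = 0.00025), Heatr3, which carries Rpl5 with Rpl11, by 0.48 ± 0.10 (limma adjusted p = 0.0025) and Ltv1, a 40S assembly factor that binds Rps3, by 0.45 ± 0.12 (limma adjusted p = 0.0089). Of 19 tested mTORC1 and TOP regulators none rose and 2 fell in the mean. Sesn1, a stress-induced mTORC1 inhibitor, fell by 0.50 ± 0.12 (limma adjusted p = 0.0051) and Tsc2, another inhibitor, by 0.23 ± 0.08 (limma adjusted p = 0.04). With the same 4 replicates left out, Grwd1 still passed (0.72, limma adjusted p = 0.024), while Heatr3 (adjusted p = 0.082), Ltv1 (0.27), Sesn1 (0.14) and Tsc2 (0.3) did not. Of 13 tested genes of ribosome rescue and collision response none passed in the mean, in either direction. Of 9 housekeeping genes 4 rose in the mean and none fell, with a median of 0.27, among them Pgk1 (0.82 ± 0.12, limma adjusted p = 8.2e-05), and 1 passed without those 4 replicates.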

How the data were processed

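The authors' log2 values, as deposited, cover 45281 probes on 48 strips, and their background correction and normalization are not given in the sources used here. Raw bead intensities were also deposited, 863780 to 1044181 beads per strip (median 18 to 22 per code), and served for alternatives only. They carry no probe names, so 45102 probes were linked to codes by their profile over strips (median r 0.98, lowest 0.67). Precision is set by the number of arrays.

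Log2 values were quantile normalized over strips and averaged per replicate. Of 34885 probes annotated to a single gene, 21435 reached 5.60 (the background mode plus 3 robust SDs) in at least 1 group and were kept. Probes with several symbols (18) or no gene (10378) were left out. The brightest probe stood for a gene. Tests used limma 3.58.1 (R 4.3.3): 1 model of 8 group means over 24 replicates with empirical Bayes moderation, and Benjamini-Hochberg adjustment over 13178 genes, threshold 0.05. The fit was tested on simulated data. Deviations of tumor and naive replicates of the same number correlated in LECs (0.20, 0.23 and 0.15) and less evenly in FRCs (0.25, 0.03 and 0.09). The values were 0.04, -0.17 and -0.22 in BECs and -0.04, -0.19 and -0.02 in DN cells. No ribosomal protein gene passed in LECs with or without the replicate number as a block. Figures used matplotlib 3.10.9.

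The members, gene lists and tests were chosen with earlier results of these data known. Named genes are those with the smallest p per cell type, the stalk proteins and Rpsa, paralogs, and genes with the highest, lowest, most and least varied naive signal. Genes of other lists are named by smallest p among those that passed. Further genes were picked after their values had been seen. Promoters are from RefSeq (GRCm38.p6).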

Additional observations from a re-analysis of the deposited data

How the results depend on the processing

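The median change of the ribosomal protein genes stayed above 0 in all 4 cell types under 15 alternatives (0.21 to 0.28 in FRCs, 0.09 to 0.25 in BECs, 0.06 to 0.11 in LECs and 0.01 to 0.20 in DN cells) and without any 1 replicate (0.23 to 0.30, 0.15 to 0.27, 0.05 to 0.12 and 0.04 to 0.25 in the same order). The lowest BEC and DN values came from leaving out BEC and DN tumor replicates 1 and 2. Counts of called genes were less stable. Without any 1 replicate they ranged from 0 to 5 in FRCs (main count 1), 0 to 5 in BECs (1), 0 to 0 in LECs (0), 0 to 5 in DN cells (0), 7 to 12 among naive cell types (11), 0 to 0 for the interaction (0) and 16 to 25 for the mean change (21). In FRCs, 5 genes passed without DN tumor replicate 1 or 3 or DN naive replicate 2, 2 without LEC tumor replicate 2 or DN naive replicate 1, and 3 without FRC tumor replicate 3. In BECs, 5 passed without BEC tumor replicate 3, 2 without DN tumor replicate 3 and 3 without DN naive replicate 2. In DN cells, 5 passed without DN tumor replicate 3, and 1 without FRC or BEC tumor replicate 3. Among naive cell types, 7 passed without DN naive replicate 3. The mean rise of Rpl27 passed in 14 of 24 such fits. The shares of all genes called in these fits are not given, so the counts cannot be read as a result about ribosomal protein genes.

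In FRCs the count was 5 with bead means and with normexp-corrected bead means, 2 with no filter on dim probes, 7 with the mean over kept probes, 6 in a fit of FRCs alone, 27 with array weights, 4 with an intensity trend, 33 with the methods' t-test unadjusted and 3 after Benjamini-Hochberg, and 6 without BEC and DN tumor replicates 1 and 2. In BECs it was 4 and 2 with the bead means, 2 with no filter, 3 with the mean over probes, 0 with median-centred strips, strip 1 alone and BECs alone, 15 with array weights, 2 with the trend, 9 and 0 with the methods' t-test unadjusted and adjusted, and 0 without those replicates. In LECs it was 7 with the unadjusted t-test. In DN cells it was 1 with either bead mean, 2 with the mean over probes, 2 with strip 2 alone, 4 with array weights, 1 with the trend, 6 with the unadjusted t-test and 2, both lower, without those replicates. Array weights gave 21 genes among naive cell types and 6 for the interaction, and the mean change had 2 without those replicates. The cause of these differences was not tested. For most of these fits the share of all genes called is not given. A high count, as with array weights or the unadjusted t-test, therefore does not set ribosomal protein genes apart from all genes. With the replicate number as a block the counts were 1 in FRCs, 1 in BECs, 0 in LECs, 0 in DN cells, 9 among naive cell types and 17 for the mean change, so the pairing changed no count by over 1.5 times.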
